A study of Mus musculus with 4 samples.

Results

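The genes described here mark the cells that wrap and surround brain vessels: Pdgfrb, Rgs5 and Vtn for pericytes, Acta2, Tagln and Myh11 for vascular smooth muscle, and Col1a1, Col1a2, Dcn and Lum for fibroblasts of the meninges and of vessel walls. They were chosen by symbol, and 9 of the 10 were among the 12700 genes of the table. Col1a1 was not analysed here. RNA was sequenced from 4 libraries of C57BL/6 mice aged 9 months, each a pool from 7 mice. Each brain was divided into both areas, so that the 2 libraries of a genotype come from the same mice. CxH and MH are labelled as Ids-ko mice, a model of Hunter syndrome (mucopolysaccharidosis type II) in which the Ids gene is disrupted, and CxWT and MWT as their wt littermates. Cx is the cerebral cortex, and M is midbrain, hippocampus and diencephalon, the last taken with thalamus, hypothalamus and striatum. There was 1 library per condition, so every test below compares libraries, and each ± is the standard error from read counting alone.

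Pericytes sit on capillaries inside the basement membrane and depend on Pdgfrb, the receptor for the growth factor that endothelial cells release, while smooth muscle cells ring the arteries and contract through Acta2 and Myh11. Fibroblasts of the meninges and of the perivascular space lay down fibrillar collagen, and Dcn and Lum, small leucine-rich proteoglycans, bind that collagen. Ids encodes iduronate 2-sulfatase, a lysosomal enzyme that takes part in the breakdown of heparan sulfate and dermatan sulfate. Decorin, the product of Dcn, carries a single chondroitin or dermatan sulfate chain, which ties this gene to the substrate of the missing enzyme.

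Levels are given as RPM, read counts scaled to the aligned reads of each library, or as RPKM, which is also per kilobase of transcript, where genes are compared with one another. The 4 libraries held 16380080 to 23475080 reads on genes, and a floor of 3 reads corresponded to 0.0779 to 0.104 RPM. The targeted gene did not follow the labels in both areas. Ids stood at 135 RPM in the library labelled CxH, 354 in that labelled CxWT, 368 in that labelled MH and 155 in that labelled MWT. Its log2 ratio was -1.39 ± 0.02 for CxH vs. CxWT and 1.24 ± 0.02 for MH vs. MWT. Markers of area followed the labels of CxH and MWT but went against those of CxWT and MH. The summed level of 15 midbrain and diencephalon genes was 30.6 RPM in CxH and 541.0 in CxWT, and 43.0 in MH and 474 in MWT, with 6 of them at 3 reads or fewer in CxH and 3 in MH. The summed level of 10 genes of cortical excitatory neurons was 1987, 313, 1832 and 247 RPM in the same order. The names CxH, CxWT, MH and MWT therefore stand for the libraries labelled so throughout, and no library was reassigned. All 6 pairs of libraries are given for the 9 genes. Calls in the lists of other genes are counted for CxH vs. CxWT and MH vs. MWT only. Whether a difference follows genotype, area or pool cannot be told apart.

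A gene was called different in a pair of libraries where p was under 0.05 in a likelihood ratio test of the Poisson counts and the log2 ratio reached 0.7 in either direction. Corrected log2 ratios are those with the trend of all genes on GC content and transcript length removed, and are given for the 9 genes and, for the other genes named, where they end a call or where a value that was not called turned direction by much. Per kilobase and averaged over the 4 libraries, the level of the 9 genes ran from 0.952 RPKM for Myh11 to 38.0 RPKM for Vtn. Dcn was second at 10.5 RPKM, followed by Rgs5 at 6.83 and Acta2 at 5.58. Pdgfrb stood at 3.08, Tagln at 2.35, Col1a2 at 1.85 and Lum at 1.01 RPKM. The summed level of the 9 genes was 178 RPM in CxH and 152 in CxWT, and 168 in MH and 148 in MWT. Vtn made up most of the difference, and the other 8 genes summed to 96.2, 90.9, 97.2 and 96.2 RPM in the same order. In bulk tissue, fewer cells of a type and less RNA per cell cannot be told apart.

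**Figure D1:**
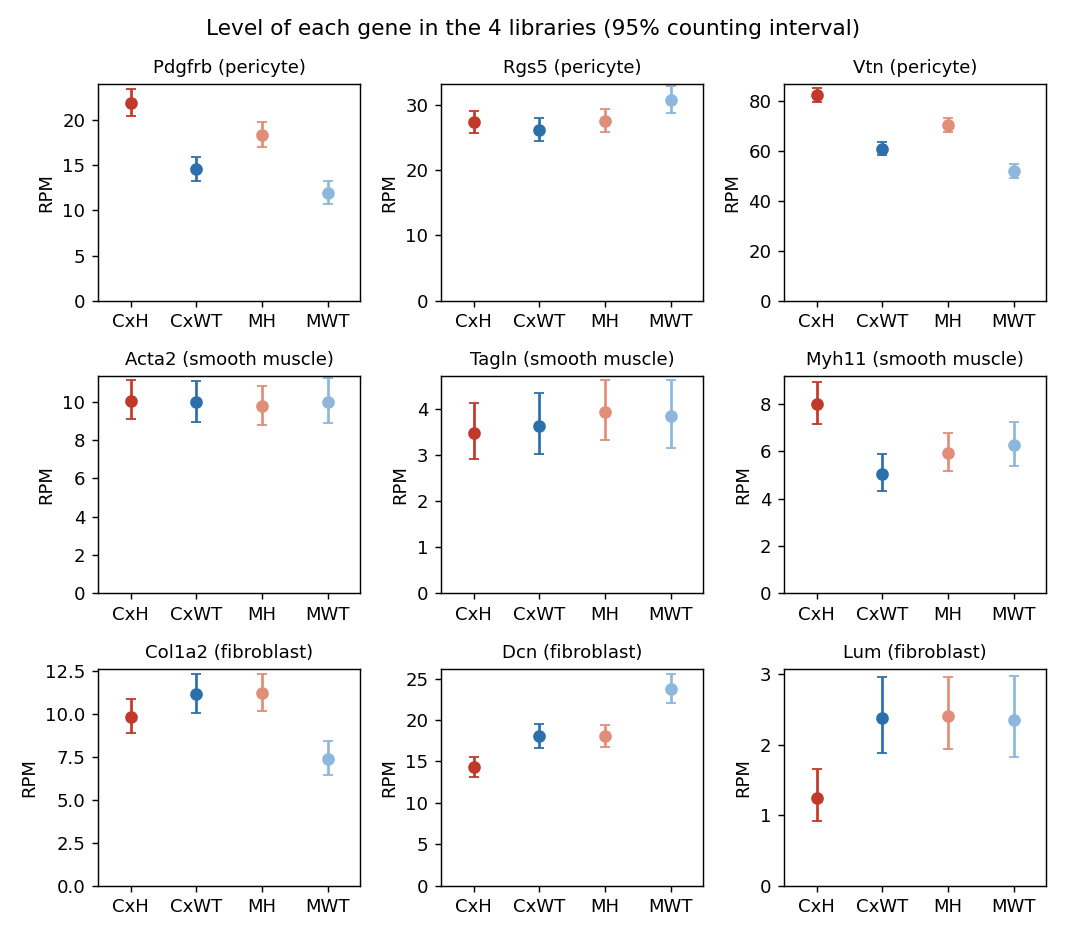
Level in RPM (vertical axes, from 0) of each of the 9 genes in the 4 libraries, with bars for the 95% exact interval of the count. Acta2 lies between 9.77 and 10.1 RPM in all 4 libraries, Pdgfrb and Vtn step down from CxH over MH and CxWT to MWT, and Lum is low in CxH alone.

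Among the pericyte genes, Pdgfrb and Vtn were ordered alike over the libraries and Rgs5 was not. Pdgfrb (Entrez 18596), which encodes the beta receptor for platelet-derived growth factor, had 21.9 RPM in CxH and 14.5 in CxWT, and 18.3 in MH and 11.95 in MWT. The order CxH, MH, CxWT, MWT was thus descending, and each neighbour in it differed beyond counting error, with log2 steps of 0.26 ± 0.07, 0.33 ± 0.09 and 0.28 ± 0.10. The log2 ratio of Pdgfrb was 0.59 ± 0.08 for CxH vs. CxWT and 0.62 ± 0.10 for MH vs. MWT, both under the threshold of size. It passed only in CxH vs. MWT, the pair at the ends of the order, with a log2 ratio of 0.87 ± 0.09 or 1.83-fold. The corrected ratio was 0.41 and was not called, and it was 0.46 for CxH vs. CxWT and 0.26 for MH vs. MWT. For CxWT vs. MWT it turned from 0.28 to -0.04, so that the last step of the order was not kept.

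Vtn (Entrez 22370, chr11:78312593-78315826 of mm9, plus strand) encodes vitronectin, an adhesion protein of plasma and matrix that pericytes make in the brain. Its level was 82.3 RPM in CxH and 60.8 in CxWT, and 70.4 in MH and 51.9 in MWT. These are the highest counts among the 9 genes, from 1502 to 3168 reads, and all 3 steps in the order again exceeded counting error. The log2 ratio of Vtn was 0.44 ± 0.04 for CxH vs. CxWT and 0.44 ± 0.05 for MH vs. MWT, and 0.67 ± 0.05 for CxH vs. MWT, so no pair was called. The corrected ratios were 0.34 for CxH vs. CxWT and 0.38 for MH vs. MWT. The steps from CxH to MH and from CxWT to MWT shrank from 0.22 and 0.23 to 0.03 and 0.07.

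Rgs5 (Entrez 19737, chr1:171585632-171625944, plus strand) encodes a regulator of G protein signalling that is abundant in brain pericytes. It stood at 27.3 RPM in CxH and 26.2 in CxWT, and 27.6 in MH and 30.8 in MWT. MWT was the highest and differed from MH by 0.16 ± 0.07 on the log2 scale, whereas MH, CxH and CxWT did not differ beyond counting error. The range of Rgs5 over the 4 libraries was 0.23 on the log2 scale, beside 0.87 for Pdgfrb and 0.67 for Vtn. Transcripts of Rgs5 have 41.1% GC, and those of Pdgfrb and Vtn 54.9% and 55.3%. The corrected ratios of Rgs5 were 0.50 for CxH vs. CxWT and 0.44 for CxH vs. MWT. For MH vs. MWT the direction turned, from -0.16 to 0.22, so that MWT was no longer the highest library and the contrast with Pdgfrb and Vtn was not kept.

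The contractile genes had the smallest median range of the 3 groups before correction. Acta2 (Entrez 11475, chr19:34315580-34329826, minus strand), smooth muscle alpha actin, had 10.1 RPM in CxH and 9.96 in CxWT, and 9.77 in MH and 9.98 in MWT. Its sequence is close to that of other actins, and only reads unique to it were counted. The highest and the lowest of the 4 levels differed 1.03-fold, and the log2 ratio was 0.01 ± 0.11 for CxH vs. CxWT and -0.03 ± 0.11 for MH vs. MWT. Tagln (Entrez 21345, chr9:45737711-45744141, minus strand) encodes transgelin, an actin-binding protein of smooth muscle. It was read 134 times in CxH and 122 in CxWT, and 147 in MH and 111 in MWT, which is 3.48, 3.63, 3.93 and 3.83 RPM. No neighbours in the order of either gene differed beyond counting error. The range over the 4 libraries was 0.18 on the log2 scale for Tagln and 0.041 for Acta2, beside a median of 0.58 over the 11010 genes that reached 100 reads in each library. The corrected ratios of Acta2 were 0.16 for CxH vs. CxWT and 0.27 for MH vs. MWT, and those of Tagln -0.08 and 0.16.

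Myh11 (Entrez 17880, chr16:14194620-14291501, minus strand), the heavy chain of smooth muscle myosin, departed from the other two. Its level was 7.999 RPM in CxH and 5.06 in CxWT, and 5.94 in MH and 6.25 in MWT. CxH was the highest and differed from MWT, the next, by 0.36 ± 0.14 on the log2 scale. The steps from MWT to MH and from MH to CxWT did not exceed counting error, but CxWT lay below MWT (-0.31 ± 0.15). The log2 ratio of Myh11 was 0.66 ± 0.14 for CxH vs. CxWT and -0.07 ± 0.14 for MH vs. MWT. The former was not called, but lay close enough to the threshold that it was called at 0.76 with TMM scaling and at 0.75 with DESeq2 size factors. The corrected ratios were 0.58 and -0.37, and the excess of CxH over MWT came to 0.00.

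The fibroblast genes went separate ways. Lum (Entrez 17022, chr10:97028135-97035337, plus strand), which encodes lumican, was read 48 times in CxH and 80 in CxWT, and 90 in MH and 68 in MWT. This is 1.25 RPM in CxH (95% exact interval 0.919 to 1.65), 2.38 in CxWT (1.89 to 2.96), 2.41 in MH (1.94 to 2.96) and 2.35 in MWT (1.82 to 2.98). CxH was low and its interval did not overlap those of the other libraries, which did not differ from each other. Lum was called lower in CxH against each of them, 1.91-fold below CxWT (log2 ratio -0.93 ± 0.26), 1.93-fold below MH (-0.95 ± 0.26) and 1.88-fold below MWT (-0.91 ± 0.27). The corrected log2 ratios were -0.49, -0.77 and -0.20, and only the difference from MH was still called. These 3 calls share the library CxH and its 48 reads, and none was made where at least 100 reads were asked for, where the log2 threshold was 1 or where a variation of 0.2 between samples was assumed.

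Dcn (Entrez 13179, chr10:96942245-96980777, plus strand), the gene of decorin, lies next to Lum on chromosome 10. Its level was 14.3 RPM in CxH and 18.03 in CxWT, and 18.04 in MH and 23.7 in MWT. MWT was highest and CxH lowest, both apart from the middle pair, which differed by 0.00 ± 0.08 on the log2 scale. The log2 ratio was -0.33 ± 0.08 for CxH vs. CxWT, -0.40 ± 0.08 for MH vs. MWT and -0.73 ± 0.08 for CxH vs. MWT. The last was called, and its corrected value was -0.01. The corrected ratios for the other pairs were 0.09 and 0.18, with the direction turned.

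Col1a2 (Entrez 12843, chr6:4454814-4491543, plus strand), one of the chains of type I collagen, was lowest in MWT before correction. It had 9.82 RPM in CxH and 11.1 in CxWT, and 11.2 in MH and 7.36 in MWT. The first 3 of these libraries did not differ from each other beyond counting error, and MWT lay below them. The log2 ratio was 0.60 ± 0.12 for MH vs. MWT and -0.18 ± 0.11 for CxH vs. CxWT, with no call in any pair. The corrected ratios against MWT were 0.20 for MH and 0.23 for CxWT, and that for CxH turned from 0.42 to -0.11, which left CxH the lowest library.

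Counted by comparison, 1 of the 9 genes was called for CxH vs. CxWT, Lum, lower in CxH. Over all genes 20.9% were called in this pair, 9.46% higher and 11.5% lower. None of the 9 was called for MH vs. MWT, where 25% of all genes were called, 12.3% higher and 12.7% lower, and 5 of the 9 had a p under 0.05 beside 74.8% of all genes. For CxH vs. MH 1 was called, again Lum as lower in CxH, beside 3.5% of all genes, of which 2.43% were higher and 1.06% lower. None was called for CxWT vs. MWT, beside 7.54% of all genes (5.43% higher and 2.11% lower), with 6 of the 9 at p under 0.05 beside 61.7% of all genes. For CxH vs. MWT there were 3 calls, Pdgfrb higher and Dcn and Lum lower in CxH, beside 30.7% of all genes (15.6% higher and 15.1% lower). None was called for MH vs. CxWT, the pair of libraries with the higher Ids level, beside 15.3% of all genes (6.41% higher and 8.89% lower). There 2 of the 9 had a p under 0.05, beside 66.6% of all genes, and the largest log2 ratio in size was 0.33. The pairs share libraries, so that these counts are not independent of one another.

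The median log2 ratio of the 9 genes was 0.01 for CxH vs. CxWT and 0.04 for MH vs. MWT, beside -0.09 and -0.07 over all genes. The corrected medians of the 9 genes were 0.16 and 0.22, beside -0.01 and -0.01. By group, the median range over the 4 libraries was 0.67 for the pericyte genes, 0.18 for the smooth muscle genes and 0.73 for the fibroblast genes on the log2 scale, and 0.62 over all genes.

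**Figure D2:**
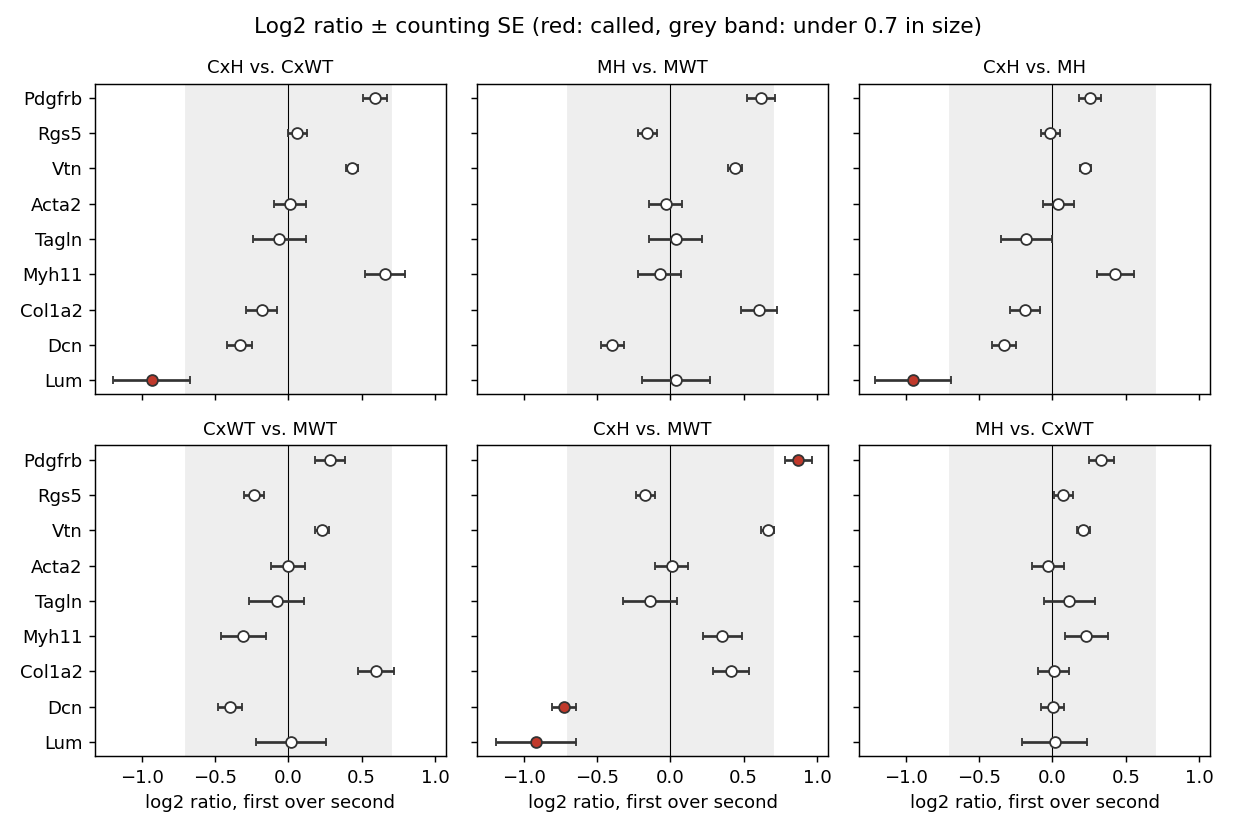
Log2 ratio, first library over second (horizontal axes), of the 9 genes in the 6 pairs of libraries, with bars for the standard error from counting. Red points are called genes, Lum in 3 pairs and Pdgfrb and Dcn in CxH vs. MWT, and the grey band holds ratios under 0.7 in size. No gene is called for MH vs. MWT, CxWT vs. MWT or MH vs. CxWT.

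Log2 ratios over the whole table varied with GC content. Over 10819 genes that had a known transcript and no library under 100 reads, Spearman's rho between GC content and log2 ratio was 0.46 for CxH vs. CxWT, 0.49 for MH vs. MWT, 0.58 for CxH vs. MH, 0.63 for CxWT vs. MWT and 0.69 for CxH vs. MWT. It was 0.16 for MH vs. CxWT, the pair in which the 9 genes differed least. These are descriptions across genes, which are not independent replicates. Dcn, Lum and Rgs5 have 42.4%, 42.0% and 41.1% GC, at the low end of all transcripts (10th percentile 42.3%, median 50.7%), and Col1a2, Vtn and Pdgfrb have 54.9% to 55.7%. Lum and Dcn had the lowest ratios of the 9 for CxH vs. CxWT, but Rgs5, the lowest in GC content, was at 0.06 and Col1a2, the highest, at -0.18. The part of this gradient in the ratios was not tested beyond the corrected values given above.

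**Figure D3:**
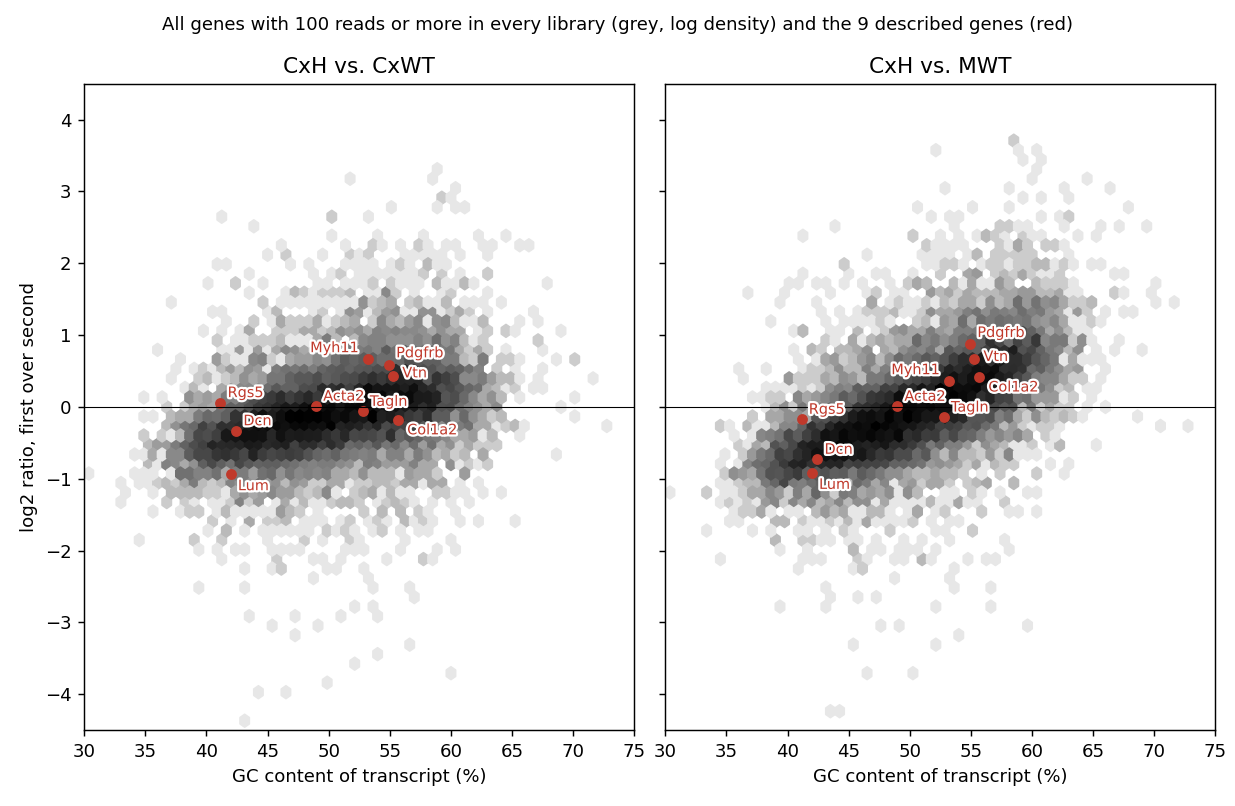
GC content of the transcript in percent (horizontal axes) and log2 ratio (vertical axes) for all genes that reached 100 reads in each library (grey, darker where genes are denser) and the 9 genes (red), for CxH vs. CxWT and CxH vs. MWT. Lum and Dcn sit at the low end of both GC content and ratio, and Pdgfrb and Vtn at the high end for CxH vs. MWT.

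Of 14 further pericyte genes in the table, 2 were called higher and none lower for CxH vs. CxWT, and 1 higher and 2 lower for MH vs. MWT. Over all genes, 9.46% were called higher and 11.5% lower in the former pair, and 12.3% and 12.7% in the latter. Their median log2 ratios were 0.31 and 0.13, or 0.10 and -0.02 once corrected. Anpep, an aminopeptidase on the pericyte surface, had 5.51 RPM in CxH and 2.35 in CxWT, and 3.51 in MH and 2.63 in MWT. It rose for CxH vs. CxWT (log2 ratio 1.23 ± 0.19), and was at 0.42 ± 0.21 for MH vs. MWT. Rgs4, a relative of Rgs5 that neurons also express strongly, was called for CxH vs. CxWT at 0.75 ± 0.03 and, once corrected, also for MH vs. MWT at 0.92. Gjc1, a connexin of mural cells, was called lower for MH vs. MWT (-1.24 ± 0.20). Notch3, the receptor that keeps mural cells differentiated, was at -0.37 ± 0.08 for CxH vs. CxWT and 0.39 ± 0.11 for MH vs. MWT and was not called in either, while CxWT lay above MWT (0.98 ± 0.10, corrected 0.31). Its corrected ratios were -0.64 and -0.38, so that the direction for MH vs. MWT turned. The 14 endothelial genes, the neighbours of these cells, summed to 388 RPM in CxH and 307 in CxWT, and 346 in MH and 362 in MWT. Of them 2 were called higher for CxH vs. CxWT, Cldn5 of the tight junction at 0.72 ± 0.08 (corrected 0.48, not called) and the cadherin Cdh5 at 0.78 ± 0.09. For MH vs. MWT 1 was called, Ly6c1, lower at -0.98 ± 0.08 (corrected -0.53, not called).

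Among the ligands of the Pdgf receptors, Pdgfb and Pdgfd were called and Pdgfa and Pdgfc were not in the same comparisons. Pdgfb, the ligand that recruits pericytes, had 29.7 RPM in CxH and 14.6 in CxWT, and 28.3 in MH and 10.4 in MWT. It was called higher for CxH vs. CxWT (log2 ratio 1.02 ± 0.08) and MH vs. MWT (1.45 ± 0.09), and neurons are a further known source of it. Pdgfd, another ligand of the beta receptor, had 1.95, 3.63, 2.52 and 4.53 RPM in the same order and was called lower in both (-0.90 ± 0.21 and -0.85 ± 0.20), but in neither once corrected (-0.39 and -0.34). Pdgfa was at -0.14 ± 0.08 and 0.48 ± 0.09, Pdgfc at -0.07 ± 0.13 and -0.22 ± 0.14, and the receptor Pdgfra, the last of this list of 5, at -0.20 ± 0.05 and -0.06 ± 0.05. Of 6 genes of integrin subunits and the urokinase receptor, which bind vitronectin, 3 were called higher for CxH vs. CxWT and none for MH vs. MWT, beside 9.46% and 12.3% of all genes. Among them Itgb3 was at 0.997 ± 0.21 and Itgb5 at 0.87 ± 0.05 for CxH vs. CxWT, and at -0.41 ± 0.21 and -0.29 ± 0.05 for MH vs. MWT. The corrected ratio of Itgb5 for CxH vs. CxWT was 0.68 and was not called. Itgb8 was at -0.57 ± 0.07 and -0.67 ± 0.07.

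Of 11 further smooth muscle and actin-associated genes, 3 were called higher and 1 lower for CxH vs. CxWT, and 2 higher and 1 lower for MH vs. MWT, beside 20.9% and 25% of all genes called. The 4 named here are also made by cells other than smooth muscle. Actn1, an actin cross-linker, had 61.8 RPM in CxH and 22.5 in CxWT, and 52.0 in MH and 20.3 in MWT, and was called at 1.45 ± 0.06 and 1.36 ± 0.07. Synpo2, an actin-binding protein, ran the other way with 8.88, 36.7, 8.56 and 24.8 RPM, and was called at -2.05 ± 0.09 and -1.53 ± 0.10. Both followed the split between CxH and MH on one side and CxWT and MWT on the other that the markers of area showed. Flna, filamin A, was called for MH vs. MWT and not for CxH vs. CxWT (0.95 ± 0.05, and 0.29 ± 0.05 for CxH vs. CxWT), and its corrected ratio of 0.55 was not. Tagln2, a relative of Tagln outside smooth muscle, was called for CxH vs. CxWT (0.72 ± 0.12) and was at -0.61 ± 0.13 for MH vs. MWT. Its corrected ratio of 0.61 for CxH vs. CxWT was not called.

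Srf encodes serum response factor, which switches on Acta2, Tagln and Myh11 by binding a short element called the CArG box, and Mrtfa encodes one of its actin-sensing partners. Srf had 85.8 RPM in CxH and 38.2 in CxWT, and 73.2 in MH and 29.9 in MWT. Mrtfa had 48.9, 27.6, 48.1 and 17.5 RPM. Both were called higher for CxH vs. CxWT (log2 ratios 1.17 ± 0.05 and 0.83 ± 0.06) and MH vs. MWT (1.29 ± 0.06 and 1.46 ± 0.07), and both are widely expressed in neurons. The corrected ratios were 0.90 and 0.65 for Srf, and 0.59 and 0.90 for Mrtfa, so that Srf was not called for MH vs. MWT nor Mrtfa for CxH vs. CxWT. Smad3, which carries the signal of Tgfb receptors, was called at 1.26 ± 0.06 and 1.58 ± 0.07. Tgfb1, a ligand of those receptors, was called for CxH vs. CxWT at 1.14 ± 0.16 and stood at 0.08 ± 0.20 for MH vs. MWT, where its corrected ratio was -0.55. In all, 4 of 10 regulators were called higher for CxH vs. CxWT and 3 for MH vs. MWT, with none lower, beside 9.46% and 12.3% of all genes called higher, while Acta2 and Tagln were not called in any pair.

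The promoters of Srf and Acta2 are shown as the regulator whose level differed and the contractile gene whose level did not pass the test in any pair. Both are from RefSeq on build GRCm38.p6, run 5′ to 3′ on the strand of the gene from 250 bases before the start site to 50 after it, with any strict CArG box in capitals. Srf lies at chr17:46556113-46556412 and Acta2 at chr19:34255324-34255623, both on the minus strand.
Srf: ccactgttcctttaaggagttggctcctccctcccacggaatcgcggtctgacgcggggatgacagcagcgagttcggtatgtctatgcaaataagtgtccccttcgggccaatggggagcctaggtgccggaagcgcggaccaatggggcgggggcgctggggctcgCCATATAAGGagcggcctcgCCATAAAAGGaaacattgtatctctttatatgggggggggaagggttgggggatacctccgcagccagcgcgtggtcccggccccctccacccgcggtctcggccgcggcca
Acta2: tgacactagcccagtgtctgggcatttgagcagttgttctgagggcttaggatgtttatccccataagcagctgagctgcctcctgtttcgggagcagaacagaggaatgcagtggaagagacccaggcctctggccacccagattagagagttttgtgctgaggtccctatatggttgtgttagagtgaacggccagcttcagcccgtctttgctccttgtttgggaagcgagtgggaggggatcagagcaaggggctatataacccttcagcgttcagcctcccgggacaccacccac
Srf held 2 CArG boxes, which begin 82 and 62 bases before the start site, and none was found in Acta2. The strict form of the box, which reads the same on both strands, was searched, and it occurred in 1.63% of 32851 promoters of the same length. Acta2 is an established target of serum response factor, and looser forms of the box were not searched. Promoters of Rgs5, Vtn and Col1a2 were searched as well and held no strict box in this window. The search thus covered 4 of the 10 genes, and whether the promoters of the others hold a box was not tested.

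Of 22 further genes of fibroblasts and meninges, 9 were called higher and 1 lower for CxH vs. CxWT, and 7 higher and none lower for MH vs. MWT. The shares of all genes were 9.46% higher and 11.5% lower, and 12.3% and 12.7%. Their median log2 ratios were 0.55 and 0.27, or 0.52 and 0.30 once corrected. The leading genes were collagen chains that did not follow Col1a2. Col5a1, a chain of type V collagen that starts fibril assembly, had 13.4 RPM in CxH and 3.87 in CxWT, and 20.9 in MH and 2.28 in MWT. It was called at 1.796 ± 0.14 for CxH vs. CxWT and 3.19 ± 0.18 for MH vs. MWT, with corrected ratios of 1.57 and 2.53. Col6a1 and Col6a2, chains of the beaded type VI collagen, followed the same split, with 69.0, 28.6, 83.0 and 24.2 RPM for Col6a1 and 12.1, 6.13, 15.1 and 3.77 RPM for Col6a2. Their log2 ratios were 1.27 ± 0.05 and 0.99 ± 0.12 for CxH vs. CxWT and 1.78 ± 0.06 and 2.01 ± 0.15 for MH vs. MWT. Nupr1, a stress-response gene, had 6.34, 1.87, 4.12 and 3.45 RPM and was called higher for CxH vs. CxWT (1.76 ± 0.20), CxH vs. MWT (0.88) and MH vs. CxWT (1.14), and lower for CxWT vs. MWT (-0.88). Neurons and glia express some of these genes too, and the part of area in their ratios was not tested.

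**Figure D4:**
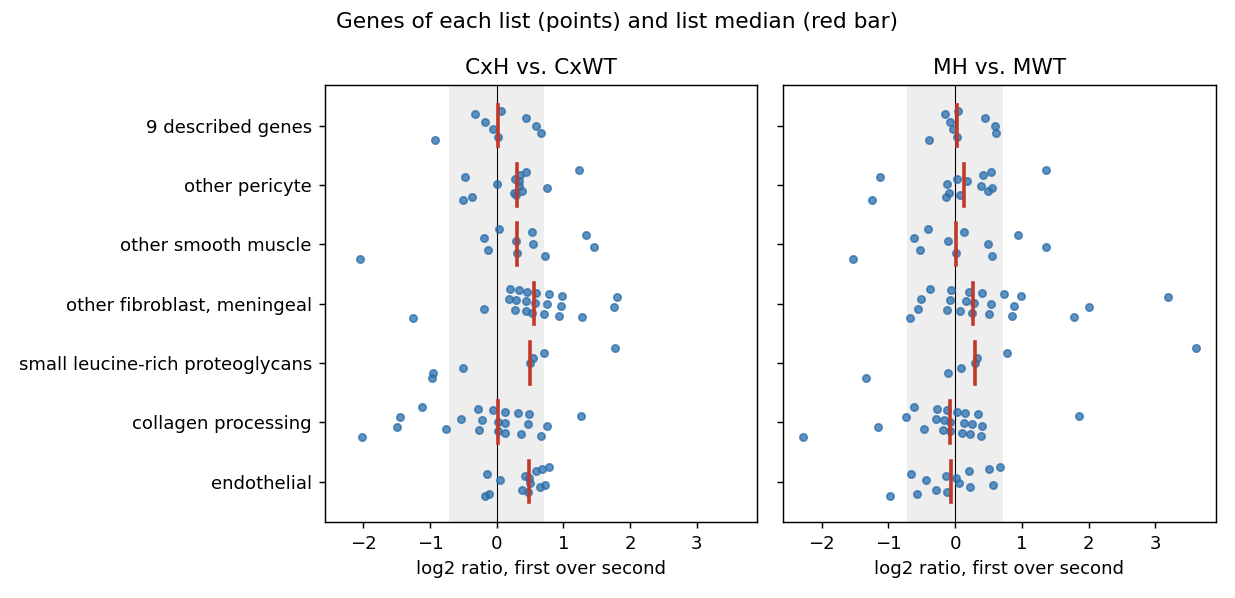
Log2 ratio, first library over second (horizontal axes), of the genes of 7 lists for CxH vs. CxWT and MH vs. MWT. Points are genes, red bars are list medians and the grey band holds ratios under 0.7 in size. The 9 genes spread less than the other fibroblast and collagen processing genes, which reach beyond 2 in size on the log2 scale for MH vs. MWT.

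Decorin and lumican belong to the small leucine-rich proteoglycans, and the other 7 members of that family in the table are all named here, a choice made after their values were seen. Of these, 2 were called higher and 2 lower for CxH vs. CxWT, and 2 higher and 1 lower for MH vs. MWT, where 20.9% and 25% of all genes were called. Ogn and Omd, which encode osteoglycin and osteomodulin and lie next to each other on chromosome 13, resembled Dcn and Lum in being lowest in CxH. Both lie within Cenpp, a gene of the other strand, and whether strand was used in the counting is not given in the sources used here. Ogn had 7.999 RPM in CxH and 11.4 in CxWT, and 10.9 in MH and 11.7 in MWT, with a log2 ratio of -0.51 ± 0.11 for CxH vs. CxWT that was not called. Omd was read 31, 53, 57 and 36 times and was called lower for CxH vs. CxWT (-0.97 ± 0.33) and CxH vs. MH (-0.92 ± 0.32). These 4 genes have the lowest GC content of the family, 34.9% to 42.4%. The corrected ratio for CxH vs. CxWT was 0.09 for Dcn, 0.17 for Ogn and -0.23 for Omd, and that of Omd for CxH vs. MH was -0.65, so that neither call of Omd was kept.

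Bgn, Prelp and Fmod had their highest level in CxH instead. Bgn, the gene of biglycan, which carries dermatan sulfate as decorin does, had 19.2 RPM in CxH and 13.2 in CxWT, and 14.0 in MH and 13.1 in MWT, and its log2 ratio of 0.54 ± 0.09 for CxH vs. CxWT was not called. Prelp was called at 0.71 ± 0.06 for CxH vs. CxWT, and Fmod, fibromodulin, at 0.78 ± 0.10 for MH vs. MWT. Neither was called once corrected, at 0.62 and 0.64. Podn, podocan, differed most and was read 137 times in CxH but 35 in CxWT, and 189 times in MH but 12 in MWT. Its log2 ratio was 1.77 ± 0.27 for CxH vs. CxWT and 3.61 ± 0.43 for MH vs. MWT. Optc, opticin, was read 20 to 49 times and was called lower in both (-0.95 ± 0.34 and -1.33 ± 0.40).

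**Figure D5:**
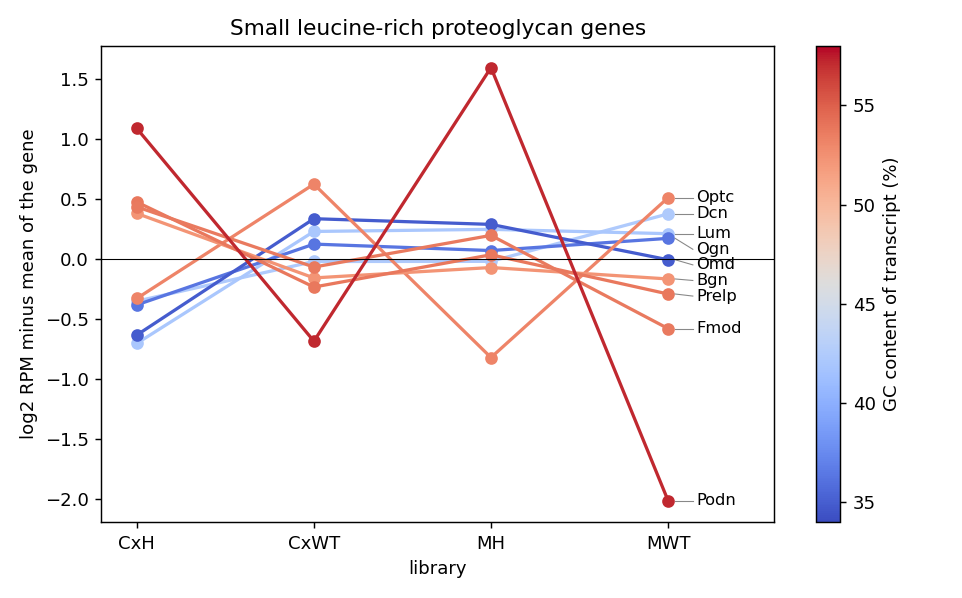
Log2 RPM minus the mean of each gene (vertical axis) in the 4 libraries (horizontal axis) for the 9 small leucine-rich proteoglycan genes in the table, with lines joining the points of 1 gene and colour for the GC content of its transcript in percent. Dcn, Lum, Ogn and Omd (blue) are lowest in CxH, Bgn, Prelp and Fmod are highest there, and Podn spans 3.61 on the log2 scale between MH and MWT.

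Genes that fold, trim and cross-link collagen moved in both directions. Of 22 in the table, 2 were called higher and 5 lower for CxH vs. CxWT, and 1 higher and 3 lower for MH vs. MWT, next to 20.9% and 25% of all genes. Sparc, a collagen chaperone of the matrix that astrocytes and endothelium make in the brain, had 219 RPM in CxH and 887 in CxWT, and 183 in MH and 892 in MWT. Its log2 ratios were -2.02 ± 0.02 and -2.29 ± 0.02. Bmp1, the protease that trims procollagen, was at 0.67 ± 0.06 for CxH vs. CxWT and was called at 1.85 ± 0.07 for MH vs. MWT. P4ha3, a prolyl hydroxylase subunit, was called lower in both (-1.502 ± 0.18 and -1.15 ± 0.18). Plod2, a lysyl hydroxylase, was called lower for CxH vs. CxWT (-1.46 ± 0.23) and was at -0.62 ± 0.20 for MH vs. MWT.

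Of 10 enzymes that build or break dermatan sulfate, 2 were called higher and 1 lower for CxH vs. CxWT, and 1 lower for MH vs. MWT, beside 20.9% and 25% of all genes called. Hexa, a subunit of lysosomal beta-hexosaminidase, had 67.2 RPM in CxH and 37.5 in CxWT, and 35.6 in MH and 51.9 in MWT, and was called for CxH vs. CxWT (0.84 ± 0.05) and not for MH vs. MWT (-0.55 ± 0.05). Gusb, lysosomal beta-glucuronidase, was called lower for MH vs. MWT (-0.87 ± 0.12) and was at 0.64 ± 0.12 for CxH vs. CxWT. Chst14, a sulfotransferase of dermatan sulfate synthesis, was called for CxH vs. CxWT at 0.71 ± 0.23. Dsel, an epimerase-like gene of the same synthesis, was called lower there (-0.91 ± 0.09). The corrected ratios, 0.58 for Chst14 and -0.47 for Dsel, were not called.

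Markers of other tissue and cells differed between libraries as well, beside 20.9% of all genes called for CxH vs. CxWT and 25% for MH vs. MWT. The summed level of 10 choroid plexus genes was 594 RPM in CxH and 172 in CxWT, and 656 in MH and 301 in MWT, and 6 were called higher and 2 lower for CxH vs. CxWT, with 4 higher and 2 lower for MH vs. MWT. Ttr, transthyretin, made up most of this sum with 537, 113, 583 and 221 RPM, and the other 9 genes summed to 56.9, 59.6, 73.7 and 79.9 RPM. Prlr, the prolactin receptor, was called lower in both (-2.57 ± 0.13 and -1.37 ± 0.09). The 2 haemoglobin and red cell genes in the table summed to 125, 254, 186 and 77.1 RPM. Hba-a1, whose count is uncertain because a near-identical copy exists, was called lower for CxH vs. CxWT (-1.06) and higher for MH vs. MWT (1.33). Of 10 microglial genes 7 were called higher for CxH vs. CxWT and 4 lower for MH vs. MWT, of 8 oligodendrocyte genes 7 and 4 were called lower, and of 8 astrocyte genes 2 were called higher and 1 lower, then 2 lower. Of the cortical neuron genes 9 were called higher in both, and of the midbrain and diencephalon genes 14 lower in both. The part of these tissues in the ratios was not tested.

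Genes outside the lists had profiles close to the median profile of each group, which the genes of the group did not all share. The nearest to the median profile of the pericyte genes, by Euclidean distance of centred log2 RPM among 11002 genes, were Ube2ql1, Slc36a1 and Actr1b, at distances of 0.028 to 0.035. Vps8, Phf20 and Igf2r were nearest to the smooth muscle genes, at 0.026 to 0.039, and Rfx7, Slf2 and Chuk to the fibroblast genes, at 0.13. The median profile of the fibroblast genes was low in CxH before correction, although Col1a2 was lowest in MWT. Rfx7 likewise had 29.8 RPM in CxH and 43.1 to 43.3 RPM in the other libraries. None of these 9 genes is among the cell type markers of the lists.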

How the data were processed

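Poly(A) RNA of the 4 pools was prepared with the SOLiD Whole Transcriptome kit and sequenced on the SOLiD 3 Plus system in a single run. The authors filtered the reads by quality, aligned them to NCBI37/mm9 with PASS (best hit, at most 2 mismatches, no gap) and deposited read counts per gene, keeping only reads that hit one gene alone and genes with coverage of more than 50% of the length. The gene annotation is not given in the sources used here.

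Counts were scaled by the aligned reads of each library, and a likelihood ratio test on Poisson counts was run for each of the 12700 genes. Entrez IDs were matched to symbols for 12690 genes. Transcript length, GC content and mm9 positions came from the longest coding transcript in GENCODE vM1, for 12358 genes. A count of 0 was set to 1 for ratios. Intervals are exact (Clopper-Pearson) and, like the floors, cover counting error only. Reads on genes were 23475080 in CxH and 20266394 in CxWT, and 22057807 in MH and 16380080 in MWT. The genes and lists were chosen with earlier results of these data known. From each related list at most 4 genes are named, those called in any of the 6 pairs with at least 100 reads in either library, by size of log2 ratio, and the 3 genes nearest to each group are named as well.

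Alternatives were reads on genes, TMM factors (edgeR 4.0.16) and DESeq2 1.42.0 size factors as scaling, a minimum of 100 reads, a log2 threshold of 1, Benjamini-Hochberg adjustment, edgeR exact tests with an assumed coefficient of variation of 0.1 or 0.2, 0.5 added to counts, and ratios with a smooth trend on GC content and length removed (mgcv 1.9.3). The tests were checked on simulated Poisson counts without variation between samples, so the check does not cover such variation. The other tools were Python 3.11.15, scipy 1.17.1 and R 4.3.3.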

Additional observations from a re-analysis of the deposited data

Results flagged for a closer look

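Of the 9 genes, 3 had a log2 ratio of CxH vs. CxWT that differed from that of MH vs. MWT, by a test of the difference over all genes (adjusted p under 0.05 and a size of at least 0.7, which 12.8% of all genes passed). For Myh11 the ratio in Cx minus that in M was 0.74 ± 0.20, for Col1a2 it was -0.78 ± 0.16, and for Lum it was -0.97 ± 0.35. The single ratios were 0.66 and -0.07 for Myh11, -0.18 and 0.60 for Col1a2, and -0.93 and 0.04 for Lum. With GC content and transcript length taken out they were 0.58 and -0.37 for Myh11, -0.34 and 0.20 for Col1a2, and -0.49 and 0.58 for Lum, and those of Col1a2 then differed by less than the threshold. The error covers counting alone, with 1 library per condition, and Ids and the markers of area did not follow the labels in all of these libraries. Pdgfrb and Vtn had differences of -0.03 ± 0.13 and 0.00 ± 0.06.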

How the results depend on the processing

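The number of the 9 genes called for CxH vs. CxWT was 1 (Lum), and was 2 with TMM factors and with DESeq2 size factors, which added Myh11. It was 0 with at least 100 reads, with a log2 threshold of 1, with an assumed variation of 0.2 and with GC content and length removed. For CxH vs. MH the count of 1 became 0 with at least 100 reads, with a log2 threshold of 1 and with an assumed variation of 0.2. For CxH vs. MWT the count of 3 became 0 with a log2 threshold of 1 or with GC content and length removed, 1 with an assumed variation of 0.2 and 2 with at least 100 reads. For MH vs. MWT, CxWT vs. MWT and MH vs. CxWT it was 0 under each of the 10 alternatives. Of 534 ratios of single genes under the alternatives, 515 kept their side of the threshold, 15 lost it, 4 gained it, and 26 changed sign, none of them a called ratio. For CxH vs. MWT, Vtn was called at 0.71 with TMM factors and 0.70 with DESeq2 size factors, and Dcn was not, at -0.68 and -0.69. The median of all genes moved by more than 0.1 for MH vs. CxWT, from -0.11 to 0.00 with TMM or DESeq2 factors and to -0.01 with GC content and length removed, and for CxH vs. MWT, from -0.04 to -0.15 with reads on genes. The share of calls that were higher moved from 45.2% to 56.0% for CxH vs. CxWT with TMM factors, and from 41.9% to 54.2% for MH vs. CxWT. With reads on genes it moved from 69.6% to 58.4% for CxH vs. MH, from 72.0% to 55.2% for CxWT vs. MWT and from 50.8% to 39.1% for CxH vs. MWT. With GC content and length removed, it came to 55.3% for CxH vs. MH, 52.0% for MH vs. CxWT and 46.8% for CxWT vs. MWT, where the genes called fell from 958 to 374 (and from 3895 to 2024 for CxH vs. MWT). No paired analysis was run. The 2 libraries of a genotype come from the same mice, but with 1 library per condition no such pair is replicated. A fit of genotype with area as a block over the 4 libraries was not run either. Leaving out a library removes the pairs it is in. Depth limits Lum most, with 48 to 90 reads, and Tagln next, with 111 to 147.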
